A study of Mus musculus with 9 samples.

Results

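The genes described here encode the protein parts of plasma lipoproteins and the machinery that loads them with lipid: Apoa1, Apoa2, Apoa4, Apoa5, Apob, Apoc3, Apoe, Mttp and Lcat. They were chosen by name, and each of the 9 matched 1 row of the 27179 gene rows of the deposited table. All 9 entered the test, which covered 12993 genes whose mean reached 10 normalized counts. The mice were C57BL/6J, labelled wild type, aged 17 months at injection and kept on normal chow. All received AAV8, a liver-tropic viral vector, at 3e+11 vector genomes per mouse, carrying the nuclease saCas9 driven by TBG, a promoter of hepatocytes. The vector's U6-driven guide RNA was directed at Rosa26 in the control group (sgRosa26, n = 4) and at Ccnd1, which encodes the cell cycle regulator cyclin D1, in the other (sgCcnd1, n = 5). The m-lobe of the liver was taken 3 weeks later and its poly(A) RNA was sequenced in bulk, so RNA of cells in which the TBG promoter is silent was measured as well. The labels name no sex, batch or time of day, and say nothing of whether animals shared a cage or litter. In column order, the control libraries are called A to D, and the sgCcnd1 libraries E to I.

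The liver exports triglyceride in very-low-density lipoprotein (VLDL). Apolipoprotein B is the structural protein of each particle, and the microsomal triglyceride transfer protein encoded by Mttp lipidates it in the endoplasmic reticulum. Apolipoproteins A-I and A-II are the main proteins of high-density lipoprotein (HDL), in which lecithin cholesterol acyltransferase, encoded by Lcat, esterifies cholesterol. Apolipoproteins C-III, A-V, A-IV and E are exchangeable: they move between particles and affect lipolysis and clearance.

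Apoa1, Apoc3, Apoa4 and Apoa5 lie next to each other on mouse chromosome 9, with no other protein-coding gene in the 43.3 kb that they span (GENCODE M21, GRCm38). The other members lie on chromosomes 1 (Apoa2), 3 (Mttp), 7 (Apoe), 8 (Lcat) and 12 (Apob). RefSeq promoter sequences were matched for 8 of the 9 genes, all but Apoc3. The 3 printed here, 250 bases up to the start that RefSeq gives, are examples from VLDL, the chromosome 9 cluster and HDL, and do not represent the other genes of each. They belong to Apob (chr12:7977427-7977676, plus strand), Apoa5 (chr9:46268383-46268632, plus strand) and Apoa2 (chr1:171224804-171225053, plus strand), all in GRCm38.p6. Each is written 5′ to 3′, with letters in capitals where a searched motif was found.
Apob: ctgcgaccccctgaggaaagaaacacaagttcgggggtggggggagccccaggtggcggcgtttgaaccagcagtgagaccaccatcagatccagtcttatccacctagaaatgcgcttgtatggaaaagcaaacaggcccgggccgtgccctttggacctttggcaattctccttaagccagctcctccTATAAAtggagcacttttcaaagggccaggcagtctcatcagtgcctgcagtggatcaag
Apoa5: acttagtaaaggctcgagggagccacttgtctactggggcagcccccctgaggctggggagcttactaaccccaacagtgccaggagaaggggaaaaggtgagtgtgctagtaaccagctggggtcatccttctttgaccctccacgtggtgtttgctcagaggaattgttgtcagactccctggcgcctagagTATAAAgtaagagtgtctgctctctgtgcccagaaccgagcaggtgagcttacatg
Apoa2: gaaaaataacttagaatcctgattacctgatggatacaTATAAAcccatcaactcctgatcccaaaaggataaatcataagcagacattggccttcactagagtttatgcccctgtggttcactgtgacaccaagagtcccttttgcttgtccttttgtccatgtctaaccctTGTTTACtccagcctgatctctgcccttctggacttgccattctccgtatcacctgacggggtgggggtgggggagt
All motifs were searched on both strands. TATAAA, the letters of the TATA box, was found in windows of 4 of the 8 genes with a sequence, the 3 printed among them. It was in 12.4% of all 32851 RefSeq promoter windows of this length. In the printed windows of Apob, Apoa5 and Apoa2 it began 60, 56 and 212 bases before the start. The windows of Apoa1, Apoa4 and Lcat held 0 of the searched motifs. The forkhead core TGTTTAC, also in capitals in the Apoa2 sequence, was found for 1 of the 8 genes and in 3.17% of all windows. The nuclear receptor element AGGTCA, held by 14.0% of all windows, was found for 1 gene, at another start of Apoa2. The core of CREB sites, TGACGT, held by 6.47%, was found for 1 gene, Mttp. A form of the site of the hepatocyte factor HNF4A, CAAAGTCCA, held by 0.384%, was found for 0. The last 29 bases of the Apob window lie within the gene as GENCODE M21 gives it. In the printed windows no matches overlapped. The matches describe letters only. RefSeq lists more than 1 start for Apoa2, Apoa5 and Apoe, so these genes had more than 1 window in which to match, unlike the per-window shares.

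Depth ranged from 10840595 to 20176201 gene-assigned reads per library, and the least deeply sequenced member, Apoa4, still had 641 to 3173 reads. Ccnd1, the targeted gene, fell from 744 ± 110 (SD, n = 4) to 362 ± 40.6 (SD, n = 5) normalized counts, or by 1.03 on the log2 scale (limma adjusted p = 0.0116). It lost the threshold, with an adjusted p up to 0.0857, when library B, D, F, H or I was left out. The Rosa26 transcript Gt(ROSA)26Sor was at 114 ± 29.5 and 116 ± 11.5. Library H stood apart in lacking Y-linked transcripts: the sum of 4 such genes was 2.00 normalized counts there and 1619 to 2834 elsewhere. Without H the log2 fold changes of the 9 members lay between -0.23 and 0.18 and their limma adjusted p between 0.708 and 0.961. Hepatocyte markers were high in every library, Alb with 1247278 to 1677964 normalized counts, and 0 of the 10 markers passed the test. Of the macrophage, stellate and lymphocyte markers, 4 of 12, 2 of 6 and 3 of 6 were lower at an unadjusted limma p under 0.05, as were 5.74% of all genes, and 0 passed the adjustment. DESeq2 called 0.8% of all genes, 70 of them lower. Of these markers it called 2 lower, the macrophage genes Lyz2 (adjusted p = 0.00216) and Cd68, named after its values were seen. It called 0 of the stellate and lymphocyte markers. In bulk RNA, fewer cells of a type and less RNA per cell cannot be told apart.

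Apolipoprotein and VLDL assembly transcripts did not differ detectably between livers given the Ccnd1 guide and control livers. Of the 9 genes, 0 passed the test (limma with Benjamini-Hochberg adjustment over all 12993 genes, two-sided), where 0.0077% of all genes tested did. With an unadjusted limma p as the criterion (0.05) the count was again 0 of 9, against 11.0% of all genes. The groups overlapped for all 9, whereas they did not overlap for 3.89% of all genes tested, 1.92% higher and 1.97% lower in sgCcnd1. edgeR and DESeq2, run on read counts recovered from the deposited values, each called 0 of the 9, where DESeq2 called 0.8% of all genes. The log2 fold changes were above 0 for 5 members and below 0 for 4, from -0.21 (Apoa1) to 0.21 (Apoa5), with a median of 0.09 beside 0.01 over all genes tested. That median ran from 0.0064 without library G to 0.15 without D, and was -0.02 with quantile normalization, so neither its size nor its sign was stable.

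The size of a change that the data allow was bounded for each gene. All 9 of the 95% limma intervals of the log2 fold change lay within -1 and 1, a change of 2-fold in either direction, and 8 of 9 lay within a change of 1.5-fold. The exception was Apoa4, whose interval ran from -0.92 to 0.55 and reached -1.06 without control A and -1.14 with robust eBayes. Over all limma alternatives 5 of 9 stayed within 1.5-fold. The bounds of Apoa1 (-0.73) and Apoe (0.80) passed it when no genes were filtered, and that of Apoc3 (-0.61) without control C. Without control A those of Apoa1 (-0.64) and Apoc3 (-0.60) passed it as well. A miss of the threshold does not show equal levels: a difference of the size of these bounds would remain undetected.

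**Figure D1:**
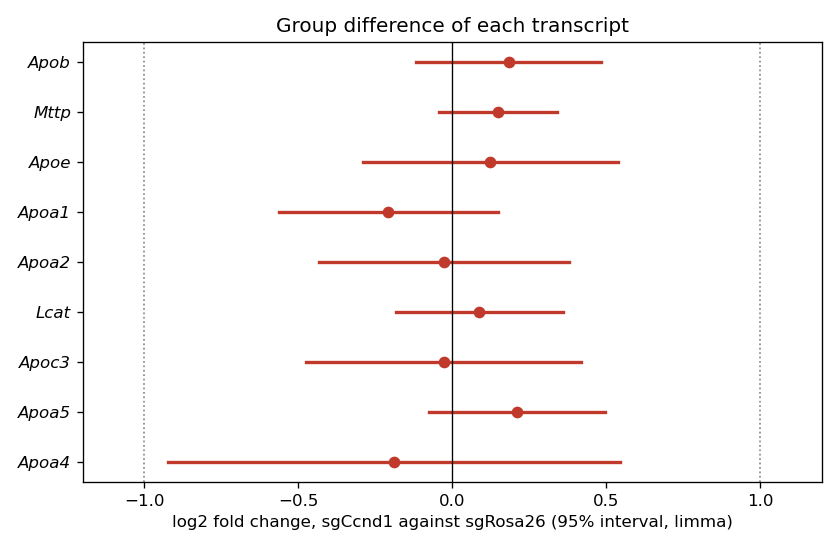
Log2 fold change (x axis, sgCcnd1 against sgRosa26) of each of the 9 transcripts, with points for the limma estimate and bars for its 95% interval. All 9 bars cross 0 and stay inside the dotted lines at -1 and 1; the widest is that of Apoa4, from -0.92 to 0.55.

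The pair at the core of VLDL assembly had higher means in sgCcnd1, but neither passed the test, and both log2 fold changes depended on scaling. With quantile normalization that of Apob was 0.0067 and that of Mttp 0.062, and without control B they were 0.10 and 0.088. Without library I that of Apob was 0.12. Apob (Entrez 238055, chr12:7977648-8016835, plus strand) had 65509, 48543, 60859.8 and 56656 normalized counts in control libraries A to D. It had 61241, 55951, 68241, 65731 and 77443 in sgCcnd1 libraries E to I. The highest value was in I and the lowest in B, and the groups overlapped, with 4 of 5 sgCcnd1 libraries above the control mean. The means were 57892 ± 7205 (SD, n = 4) and 65721 ± 8051 (SD, n = 5). This is a log2 fold change of 0.18, standard error 0.138 (95% interval -0.12 to 0.48, limma adjusted p = 0.650).

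Mttp (Entrez 17777, chr3:138089854-138144968, minus strand) varied least of the 9 genes, by 1.34-fold from the lowest to the highest library. Its normalized counts were 5424, 4996, 6352 and 5938 in A to D and 6426, 6067, 6158, 6015 and 6682 in E to I. All 5 sgCcnd1 libraries lay above the control mean of 5677 ± 592 (SD, n = 4), at a mean of 6269.6 ± 279 (SD, n = 5), but only 2 of them, E and I, above the highest control, C. On the log2 scale Mttp differed by 0.15, standard error 0.0879 (95% interval -0.04 to 0.34, limma adjusted p = 0.555), the smallest p among the members. Control C decided whether the groups overlapped: without it all 5 sgCcnd1 libraries were above the controls (log2 fold change 0.20), as they were for 3.6% of all genes tested. The exact two-sided permutation p was then 0.0357, the smallest that 3 against 5 libraries can give and thus a restatement of the separation. The limma p adjusted over all genes was 0.457. Over 16 limma alternatives the 95% interval of Mttp left out 0 in 1, as did that of Apoa4. An annotated antisense transcript and Trmt10a overlap Mttp on the other strand, and since use of strand in counting is not given in the sources used here, reads from them cannot be told apart. The ratio of Apob to Mttp normalized counts within a library ran from 9.54 to 12.1 in controls and from 9.22 to 11.6 in sgCcnd1, a description without test.

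**Figure D2:**
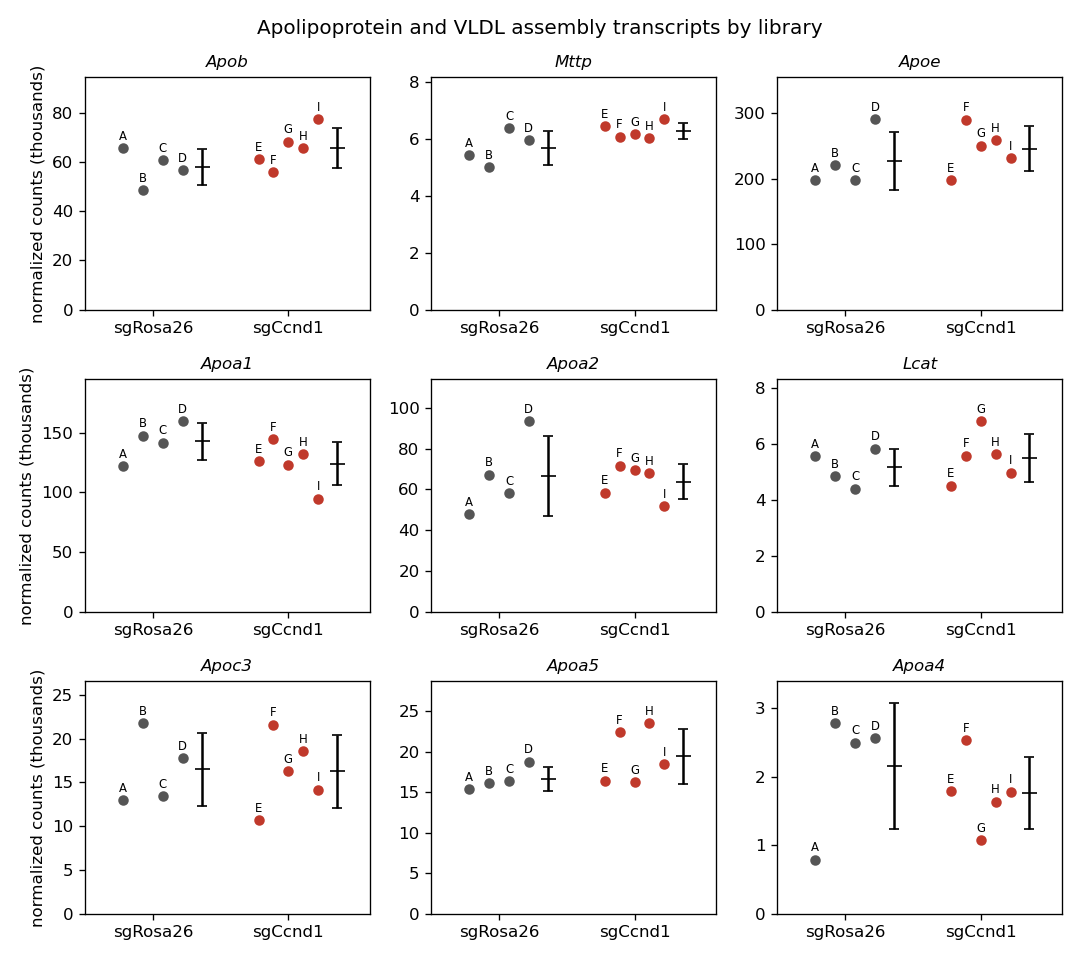
Normalized counts divided by 1000 (y axis, from 0) of the 9 transcripts in each library, control libraries A to D in grey and sgCcnd1 libraries E to I in red, with the group mean and SD in black. The groups overlap in every panel; Apoa4 in control A (788 normalized counts) lies far below the other controls.

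Apoe encodes the ligand through which remnants are cleared by hepatic receptors, and is made by hepatocytes and macrophages. It (Entrez 11816, chr7:19696109-19699188, minus strand) took the largest share of reads of the 9 genes, 1.27% to 1.84% per library. Its normalized counts were 197505, 220186, 197224 and 290938 in A to D and 197366, 290310.3, 250468, 258342 and 230944 in E to I. Control D and sgCcnd1 library F were almost equally high, and A, C and E almost equally low. For Apoe the log2 fold change was 0.12, standard error 0.191 (95% interval -0.29 to 0.54, limma adjusted p = 0.845). It was 0.06 without A, C or F, 0.20 without E, 0.25 without D and -0.02 with quantile normalization, so neither its size nor its sign held over the alternatives. The summed normalized counts of 12 macrophage markers ran from 4512 to 5571 in controls and from 3921 to 4819 in sgCcnd1, with 0 of the 12 at 0 in all libraries, and their part in the level of Apoe was not tested.

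The HDL genes showed no shared direction. Apoa1 (Entrez 11806, chr9:46228580-46230466, plus strand) had 121975, 147795, 141786 and 159909 normalized counts in A to D and 126388, 144853, 123441, 131976 and 94777 in E to I. Of the sgCcnd1 libraries 4 of 5 were below the control mean, and I was the lowest of all. The means were 142866 ± 15836 (SD, n = 4) and 124287 ± 18426 (SD, n = 5), with a log2 fold change of -0.21 and standard error 0.163 (95% interval -0.56 to 0.15, limma adjusted p = 0.662). Without library I, and also with quantile normalization, the log2 fold change was -0.11.

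Apoa2 (Entrez 11807, chr1:171225054-171226379, plus strand) had 47782, 67180.1, 58043 and 93507 normalized counts in A to D and 58418, 71571, 69518, 67824 and 51892 in E to I. Both extremes were controls, A the lowest and D the highest, so that the sgCcnd1 values lay inside the control range. For Apoa2 the difference was -0.03 on the log2 scale, standard error 0.187 (95% interval -0.43 to 0.38, limma adjusted p = 0.969), and it was above 0 without D (0.15), E or I. The ratio of Apoa1 to Apoa2 normalized counts was 2.55, 2.2, 2.44 and 1.71 in A to D and 2.16, 2.02, 1.78, 1.95 and 1.83 in E to I, a description without test in which control D was lowest and the other controls were above every sgCcnd1 library.

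Lcat (Entrez 16816, chr8:105939551-105943382, minus strand), which acts on cholesterol in HDL with apolipoprotein A-I as its cofactor, had 5562, 4834, 4389 and 5820.2 normalized counts in A to D. It had 4493, 5566, 6806, 5633 and 4963 in E to I. Library G was the highest and control C the lowest. Lcat thus had a log2 fold change of 0.09, standard error 0.125 (95% interval -0.18 to 0.36, limma adjusted p = 0.832). Without C it was 0.01, without G 0.0064, without E 0.16 and with quantile normalization -0.0028.

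Among the exchangeable proteins, C-III slows and A-V promotes the hydrolysis of triglyceride by lipoprotein lipase. Apoc3 (Entrez 11814, chr9:46232933-46235636, minus strand) had 12945, 21777, 13442 and 17798 normalized counts in A to D and 10655, 21602, 16256, 18601 and 14148 in E to I. The lowest value, in E, and the second highest, in F, came from the same group. Between the group means the log2 difference was -0.03, standard error 0.205 (95% interval -0.47 to 0.42, limma adjusted p = 0.970), and its sign turned without B, D, E or I.

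Apoa5 (Entrez 66113, chr9:46268633-46271919, plus strand) had 15358, 16091, 16374 and 18776 normalized counts in A to D and 16424, 22459, 16260.3, 23557 and 18483 in E to I. Libraries F and H were above every control, and E, G and I were within the control range. Its log2 fold change, 0.21 (standard error 0.131), was the highest of the 9 (95% interval -0.07 to 0.49, limma adjusted p = 0.575). Neither the value nor its rank was stable. Without library H the value was 0.14, below those of Apob (0.18) and Mttp (0.16). Without control A it was 0.17, below that of Apob (0.25). With quantile normalization the value of Apoa5 was 0.14. The ratio of Apoc3 to Apoa5 normalized counts ran from 0.821 to 1.35 in controls and from 0.649 to 1.0 in sgCcnd1, again overlapping.

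Apoa4, which is made mainly in the intestine and at lower levels in mouse liver, had the widest spread. Its normalized counts (Entrez 11808, chr9:46240696-46243459, plus strand) were 788, 2781, 2497 and 2559 in A to D and 1785, 2529.9, 1076, 1633 and 1778 in E to I. Control A was the lowest of all 9 libraries, while the other 3 controls and library F were the 4 highest. The range was 3.53-fold, and the SD of its log2 values over the 9 libraries, 0.62, was above that of 99.1% of the 2155 genes that averaged 1000 normalized counts or more. Between groups Apoa4 differed by -0.19 on the log2 scale, standard error 0.338 (95% interval -0.92 to 0.55, limma adjusted p = 0.875). Without control A it was -0.62, with an interval from -1.06 to -0.18 and an adjusted p of 0.262 in limma. Without B, C, D or G it lay between -0.07 and -0.01, and without F it was -0.33. On recovered reads it was -0.30 with edgeR and with DESeq2, so the estimate depended on several libraries and on the model. Antisense transcripts are annotated across Apoa4, Apoa5 and Lcat, and their reads cannot be told apart from those of the gene.

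Some other measures were also extreme in library A, in library G or in both. The libraries with the lowest Apoa4, A and G, had the highest summed level of 12 acute-phase genes, 392020.3 and 416628 normalized counts, against 220147 to 303810.2 in the other 7. In controls this sum ran from 220147 to 392020.3 and in sgCcnd1 from 262194 to 416628, and 0 of the 12 genes passed the test. Of 8 enterocyte markers, Fabp2 made up nearly all of the signal, with 286 normalized counts in A, the lowest library, and 1449 in D, the highest. Of the rest, Cdx1 was at 0 in all 9 libraries, Cdx2, Sis, Lct, Alpi and Krt20 did not exceed 13.7 and Vil1 did not exceed 23.7. The summed level of 10 measured fasting-induced genes was 54979.7 to 76929 in controls and 53853 to 107507 in sgCcnd1. It was highest in G, while A, at 58507, was not extreme. Library A also had the fewest reads of the controls, 12249127 against 16246902 to 16602988. Over both groups, library I had fewer still, 10840595, with Apoa4 at 1778, and G had 16664263. The part of each of these in the Apoa4 values was not tested.

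The genes whose profile over the 9 libraries was nearest to that of Apoa4 were Spc24, Olig1, Nat8f5, Cmc2 and Mup20. Likeness was measured as the root-mean-square difference of mean-centred log2 values, among 10350 genes averaging 50 normalized counts or more, and was 0.24 for Spc24 and 0.33 for Mup20. All 5 had their lowest value in library A, and 4 of them had their second lowest in G. Mup20, a major urinary protein, had 11817 normalized counts in A and 19872 to 29196 in the other 8 libraries. Choosing genes for likeness fixes this resemblance, so it is a description only.

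**Figure D3:**
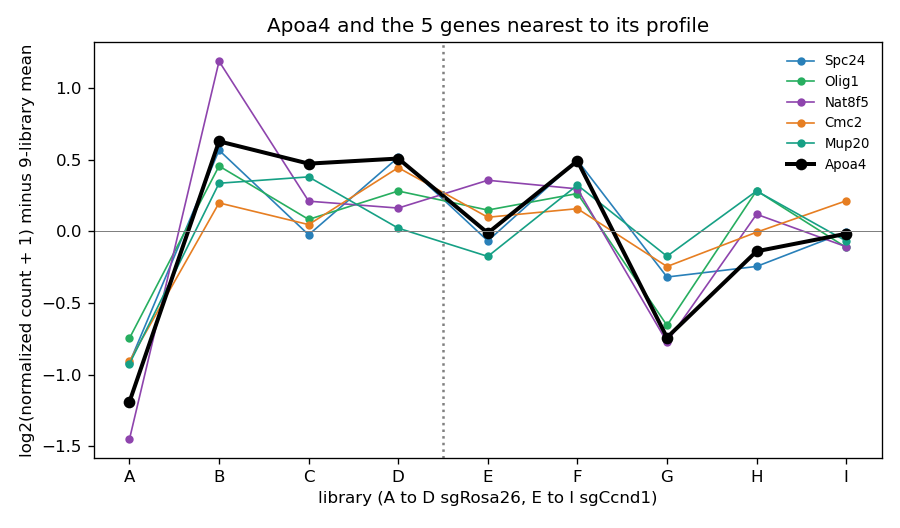
Log2(normalized count + 1) minus its mean over the 9 libraries (y axis) for Apoa4 (black) and the 5 nearest genes (colours), by library (x axis; controls A to D, sgCcnd1 E to I). All 6 lines are lowest in library A, and Apoa4 is next lowest in G.

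The 4 genes of the chromosome 9 cluster did not share one profile. Relative to the mean over 9 libraries on the log2 scale, library B was at 0.63 for Apoa4, 0.45 for Apoc3 and 0.17 for Apoa1 but at -0.16 for Apoa5. Library G was at -0.74 for Apoa4 and 0.03 for Apoc3, its neighbour. In library F all 4 were above their means, from 0.14 for Apoa1 to 0.49 for Apoa4, and in A all 4 were below, from -1.19 for Apoa4 to -0.11 for Apoa1. Among the 9 members, library A had the lowest value of 3 (Apoa2, Apoa4 and Apoa5) and library D the highest of 3 (Apoa1, Apoa2 and Apoe), both controls.

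Per kilobase of the longest annotated coding transcript, levels spanned more than 2 orders of magnitude. Apoe was highest, at 168346 ± 26834 normalized counts per kilobase (SD, n = 9), and lay above Apoa1 in 9 of 9 libraries. Apoa1 (128062 ± 18324) and Apoa2 (125640.1 ± 25981) did not differ in order beyond their spread, Apoa1 being higher in 5 of 9 libraries. Apoc3 (23072 ± 5498), Apoa5 (7236 ± 1176) and Apob (4467 ± 596) followed, each above the next in 9 of 9 libraries at this length. Apob and Lcat (3979.6 ± 564) were close, Apob being higher in 5 of 9. Mttp (1516 ± 131) lay below Lcat in 9 of 9 libraries and above Apoa4 (1067 ± 388) in 8 of 9. With the median in place of the longest transcript length the order of the means was the same, but not the separation of neighbours. Apoc3 (33418) was then above Apoa5 (29784) in 6 of 9 libraries, while Apoa1 was above Apoa2, and Apob (8009) above Lcat, in 9 of 9. Together the 9 genes took 3.14% to 4.13% of reads in controls and 3.14% to 3.83% in sgCcnd1.

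**Figure D4:**
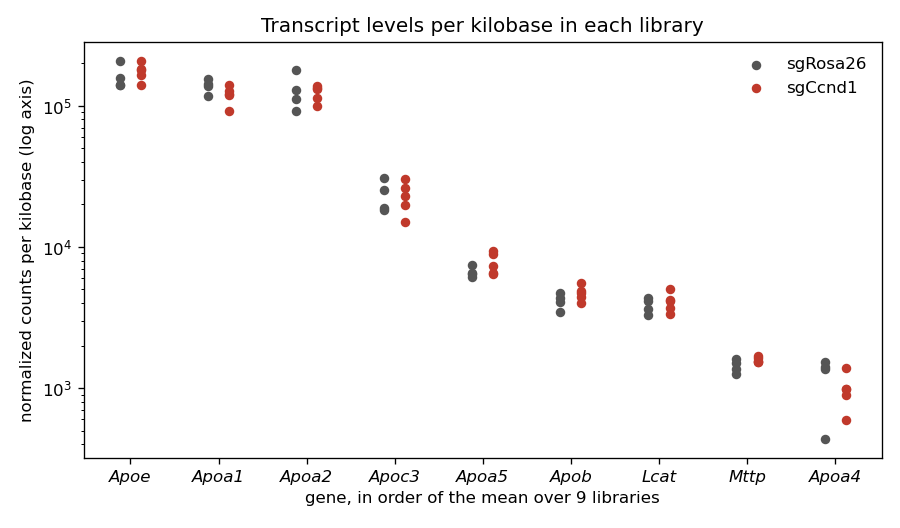
Normalized counts per kilobase of the longest coding transcript (y axis, log scale) for the 9 genes in order of their mean, with 1 point per library (grey, sgRosa26; red, sgCcnd1). Apoe is highest at a mean of 168346 and Apoa4 lowest at 1067, and Apoa1 and Apoa2 overlap.

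Genes that act with the 9 were examined through lists. Of 23 genes for VLDL assembly and secretion, 0 passed the test, and 18 (78.3%) had a log2 fold change above 0, as had 52.9% of all genes tested and 59.9% of those averaging 100 normalized counts or more. The median was 0.19, beside 0.01 over all genes and 0.04 over those averaging 100 or more. The summed normalized counts of the 23 genes ran from 69973 to 81054 in controls and from 82429 to 92610 in sgCcnd1, without overlap. This sum was not tested, and genes with high counts weigh most in it. At an unadjusted limma p under 0.05, 5 of the 23 were higher and 0 lower, where 5.22% of all genes tested were higher and 5.74% lower, or 6.55% and 3.92% with a minimum mean of 100. The count depended on scaling and on single libraries of both groups: it was 2 of 23 with quantile normalization (median 0.10), 3 with scaling to the 75th percentile (median 0.15) and 3 without B, C or D, or with edgeR without H. It was 6 without A and 7 without F. The median was 0.11, 0.12, 0.11 and 0.12 without A, B, C and F.

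Aadac, a microsomal lipid esterase, had 7267 ± 447 normalized counts in controls (SD, n = 4) and 8559 ± 457 in sgCcnd1 (SD, n = 5), with 5 of 5 libraries above all controls. The log2 difference was 0.24, standard error 0.0815 (limma adjusted p = 0.336; DESeq2 adjusted p = 0.106), and 0.13 with quantile normalization. Lpcat3, which makes polyunsaturated phospholipids for the particle surface, was at 1935 ± 190 and 2240.2 ± 103, also without overlap (log2 fold change 0.22, limma adjusted p = 0.380). The groups did not overlap upward in 2 of 23 genes here and in 1.92% of all genes. Ces1d, a triglyceride hydrolase, was at 10362 ± 2186 and 13647 ± 2132 (log2 fold change 0.41, limma adjusted p = 0.361), and Cideb, which helps to lipidate VLDL, at 887 ± 42.7 and 1040.5 ± 99.1 (log2 fold change 0.23, limma adjusted p = 0.372). The fifth, P4hb, named after its values were seen, encodes the protein disulfide isomerase that pairs with the Mttp product; it was at 12515 ± 1241 and 14646 ± 893 (log2 fold change 0.23, limma adjusted p = 0.408). Of 13 clock genes, 5 were higher and 2 lower at an unadjusted limma p under 0.05 beside 5.22% and 5.74% of all genes. By limma 0 passed the adjustment, while DESeq2, which called 0.8% of all genes, called Npas2 lower (also named after its values were seen). The part of the clock genes in the values of the VLDL list was not tested.

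**Figure D5:**
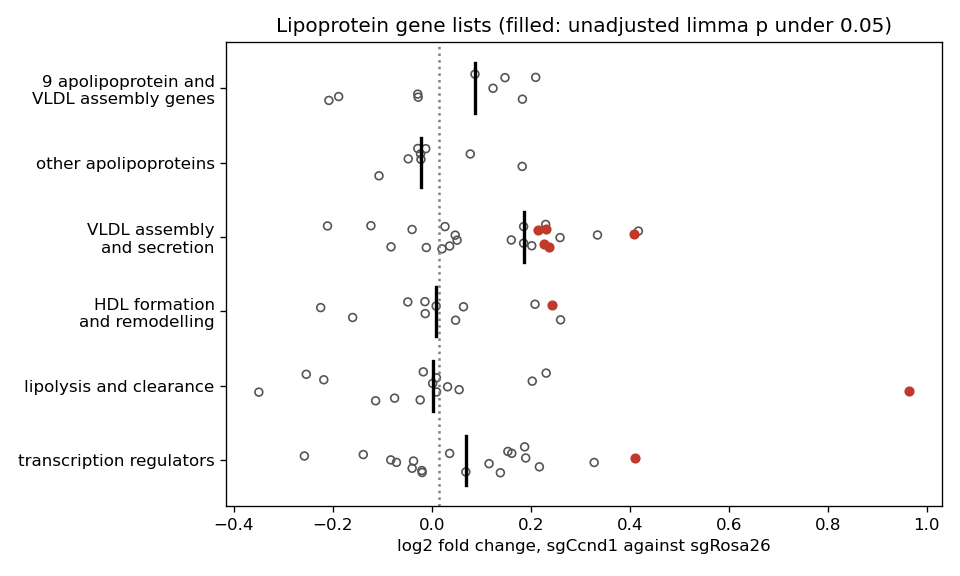
Log2 fold change (x axis, sgCcnd1 against sgRosa26) of each tested gene in the 9-gene group and in 5 lists of related genes (rows), with filled points where the unadjusted limma p is under 0.05, black bars at list medians and a dotted line at the median of all genes. The VLDL list has its median at 0.19 and 5 filled points, and 0 genes of any list passed the adjusted test.

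Of 9 other apolipoproteins, 8 were tested and 0 passed, with a median log2 fold change of -0.02. At an unadjusted limma p under 0.05 the count was 0, beside 11.0% of all genes tested. Clu, which encodes apolipoprotein J, was at 20970.3 ± 1589 and 23927 ± 3418 normalized counts (log2 difference 0.18, limma adjusted p = 0.59). Apon was at -0.11, Apoh at 0.08 and Apoc2, the activator of lipoprotein lipase, at -0.05 on the log2 fold change scale. Without G the log2 difference of Clu was 0.10, and those of the other 3 moved by over 1.5 times with single libraries. The list's median was -0.08 without F and 0.07 without D. Apod, the gene not tested, did not exceed 0.971 normalized counts.

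Of 11 genes of HDL formation and remodelling, 0 passed and the median was 0.01. Lipc, hepatic lipase, was at 2484 ± 206 and 2939 ± 262 normalized counts, with 5 of 5 sgCcnd1 libraries above the control mean (log2 fold change 0.24, limma adjusted p = 0.358). Log2 fold changes were -0.22 for Abcg1, a cholesterol exporter, 0.26 for Lipg, endothelial lipase, and -0.16 for Scarb1, the HDL receptor. Their unadjusted limma p-values were 0.137, 0.166 and 0.198. Lipg was at 0.41 without H and 0.16 without I, and Scarb1 at -0.09 without A and -0.26 without B. The median was -0.04 without A and 0.07 without D.

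Of 15 genes of lipolysis and clearance, 0 passed and the median was 0.00. Angptl4, an inhibitor of lipoprotein lipase, was at 446 ± 189 and 938 ± 575 normalized counts, with the highest value, 1837, in library G (log2 fold change 0.97, standard error 0.409, limma adjusted p = 0.417). Lpl was at 352 ± 108 and 272 ± 73.9 (log2 fold change -0.35, limma adjusted p = 0.611). Ndst1, which sulfates heparan chains, was at 0.20 on the log2 fold change scale (limma adjusted p = 0.628), and at 0.13 without B. Without A Lpl was at -0.22 and without D at -0.60. The median was -0.04 without A and 0.04 without D.

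Of 19 transcription regulators of these genes, 0 passed and the median was 0.07, with 0.0052 without G and 0.15 without E. Nr1d1, a repressor of the circadian clock that is also in the clock list, was at 2039.96 ± 631 and 2647 ± 462 normalized counts (log2 difference 0.41, limma adjusted p = 0.451). Cebpa was at 5837 ± 546 and 6805 ± 775 (log2 fold change 0.22, limma adjusted p = 0.476). Hnf4a, a hepatocyte factor that activates many apolipoprotein genes, was at 8869.9 ± 901 and 9749.96 ± 763 (log2 fold change 0.14, limma adjusted p = 0.621). Creb3l3, a membrane-bound factor that activates Apoa4, was at 2799.7 ± 393 and 3103 ± 312 (log2 fold change 0.15, limma adjusted p = 0.632). With quantile normalization the value of Cebpa was 0.12, of Hnf4a 0.03 and of Creb3l3 0.08. Without B that of Nr1d1 was 0.25 and of Hnf4a 0.09, and without A that of Creb3l3 was 0.06.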

How the data were processed

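The deposited table gives a never-negative signal, called normalized counts in its name, for each gene and library. Per the submitters' processing notes, which state no role or order, Trim Galore 0.6.7, HISAT2 2.2.1, featureCounts 2.0.3 and DESeq2 2.11.40.8 were used with mm10/GRCm38. Annotation, strand setting and filters are not given in the sources used here. In each library 100% of values were whole multiples (within 0.05 of a read) of 1 number, so the signal deposited by the authors equals reads divided by 1 size factor. Column names give the guide target and an animal number.

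Log2(normalized count + 1) of genes with a mean of at least 10 was tested with limma 3.58.1 in R 4.3.3 (lmFit, eBayes with trend, two-sided, no covariates), with Benjamini-Hochberg adjustment over 12993 genes and a threshold of 0.05. This scale understates the fold changes of low genes. Single values were also tested by exact two-sided permutation over the 126 arrangements of the libraries, whose smallest p is 0.0159. The p-values of the 9 members by that test ran from 0.111 to 0.905. As nothing states the relation between animals, p-values measure the spread between these samples. The members and lists were chosen with earlier results of these data known. Genes named were the members, the guide targets, the 4 of each related list with the smallest p and a mean of at least 50, the 2 highest of each marker list and the 5 nearest to the most variable member. Marker genes not printed by name are given through their list, and a few named by the rule are not reported here. Of the cholangiocyte, endothelial and adipocyte markers, 0 passed. At an unadjusted limma p under 0.05 were 1 of 5, 0 of 6 and 0 of 1 tested, beside 11.0% of all genes. The 1 was Sox9, lower in sgCcnd1 (log2 fold change -0.51). Alternatives were other pseudocounts, filters and scalings, robust eBayes, edgeR 4.0.16 (quasi-likelihood, TMM) and DESeq2 1.42.0 on recovered reads, and leaving out each library. DESeq2 left 254 adjusted p-values undefined, and they were kept so. The procedures were tested on simulated data.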

Additional observations from a re-analysis of the deposited data

Results flagged for a closer look

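A library far from the others of its group was found in 10 of 144 sets of values, where chance gives about 7.2 (1 in 20). Among the members, Apoa4 was at 788 normalized counts in control library A against 2497 to 2781 in the other controls. The ratio of Apob to Mttp normalized counts was 12.1 in control A against 9.54 to 9.72 in the others. Control A also had fewer reads, 12249127 against 16246902 to 16602988.

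In sgCcnd1 library G, the summed acute-phase genes reached 416628 normalized counts, above the 262194 to 303810.2 of the other sgCcnd1 libraries. Fga was at 126039.9 there against 72277 to 85878, Fgb at 82105 against 49546 to 56977, Clu at 29816 against 20902 to 23194 and Cebpa at 5445 against 6911 to 7333. Adipoq was at 0 in control A against 0.877 to 0.971 in the other controls, and at 0.895 in library F against 0 in the rest of its group; each value above 0 is 1 read.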

How the results depend on the processing

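No paired analysis was possible because nothing in the labels ties an animal of one group to one of the other, and the table's header gives no replicate number. The count models without library H were added after the data were seen. Over the 20 alternatives, 0 of the 9 members and 0 genes of the 5 related lists passed the threshold in any, with member adjusted p from 0.262 (Apoa4 without A) to 0.998. Of 180 member values, 171 kept their direction. The 9 that did not were for Apoe (-0.019) and Lcat (-0.0028 by limma, -0.0016 by the mean difference) with quantile normalization, and for Apoa2 (-0.17 to 0.15) and Apoc3 (-0.14 to 0.12) in fits that left out a library. In such fits the related gene Apoc2 ranged from -0.16 to 0.10, turning positive without B, D or E, and Gt(ROSA)26Sor from -0.11 (without A) to 0.16. The number of members without overlap was 0, and 0 to 1 when a library was left out (Mttp, without C, where 3.6% of all genes were higher without overlap). The interval of Apoa4 reached -1.14 with robust eBayes, beyond 2-fold. The median of the 9 was -0.02 with quantile normalization.

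Of all genes, 0 were higher by limma, 34 by DESeq2 and 16 by DESeq2 without H. Lower were 1 by limma, 70 by DESeq2, 25 by DESeq2 without H, 2 under quantile normalization, 0 by edgeR without H and 0 to 2 when a library was left out. The cause was not tested. Each member had at least 641 reads in every library, and counting error was not separated from the spread between animals.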
